A study of Mus musculus with 8 samples.

Results

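The genes described here encode the laminin chains Lama1, Lama2, Lama4, Lama5, Lamb1, Lamb2 and Lamc1, the nidogens Nid1 and Nid2, and perlecan, encoded by Hspg2. They were measured in mouse C2C12 myoblasts, an established line of muscle precursor cells, with and without silencing of the long noncoding RNA Pvt1. Every non-control spot of the array whose gene name is one of these 10 symbols was taken, which gave 29 probes of 56605, or 10 of the 37074 gene names on the array. All 8 samples were proliferating cells at passage 10, and both groups were transfected with the same lipid reagent, Lipofectamine. The 4 silenced samples received antisense LNA GapmeRs against Pvt1, short modified DNA strands that pair with a transcript and lead to its cutting by RNase H, and the 4 control samples received negative control GapmeRs. The samples are labelled as biological replicates of a single cell line, so the p-values cover the spread between cultures of that line only. Total RNA of each sample was labelled with Cy3 and hybridised to its own array. A value given here is the log2 of the processed spot intensity after normalization across the 8 arrays, a change is the mean of the silenced arrays minus the mean of the control arrays on that scale, and a probe was called when its limma p-value, adjusted with Benjamini-Hochberg over all probes tested, was below 0.05.

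Laminins are cross-shaped proteins of the extracellular matrix, each built from an alpha, a beta and a gamma chain. They polymerise on the cell surface and form the scaffold on which a basement membrane is laid down. Nidogens connect the laminin network with the type IV collagen network, and perlecan, a large proteoglycan that carries heparan sulfate chains, binds both. In skeletal muscle this sheet surrounds every fibre and its satellite cells, integrin receptors and dystroglycan attach the cell to it, and loss of the laminin alpha 2 chain causes a congenital muscular dystrophy.

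Each probe is a 60-base DNA and detects the stretch of transcript with its sequence. Stretches of 30 bases are shown for 8 probes, each written 5′ to 3′ in the direction of the transcript, with the mm9 position of the stretch. The perlecan probes are shown because both read the same gene near its 3′ end and gave different results, the Nid2 and Lamb2 probes because they were called lower, the Nid1 and Lama5 probes as bright probes that were not called, and the Lamc1 probes because they overlap. Capitals mark the polyadenylation signal ATTAAA in the Lama5 probe and the run of bases that both Lamc1 stretches share.
Hspg2 A_55_P1959648: ttctcttctgggatcacaggctgtatcaag
Hspg2 A_52_P422859: gaacgagggatgatgataaccctgcccatc
Nid2 A_51_P315666: acagtggaaaaggaattggccattatgagt
Lamb2 A_51_P248044: gccctgaaactgaaacgggcaggaaatagc
Nid1 A_51_P339943: tgcttattaatggttctccagatgtataca
Lama5 A_55_P2064321: ctgagatctgaaATTAAAatgacttgtttg
Lamc1 A_55_P1981381: taGCTGTTTGCCTTAATCTCTACAGCCttc
Lamc1 A_51_P199354: GCTGTTTGCCTTAATCTCTACAGCCattcc
The Hspg2 stretches lie at chr4:137125445-137125474 and chr4:137126392-137126421 on the plus strand, the Nid2 stretch at chr14:20630490-20630519, the Lamb2 stretch at chr9:108392189-108392218 and the Nid1 stretch at chr13:13604417-13604446, all on the plus strand as well. The Lama5 stretch lies at chr2:179911079-179911108 and the Lamc1 stretches at chr1:155066156-155066185 and chr1:155066154-155066183, on the minus strand. The Lamc1 probes share a run of 55 of their 60 bases, so they are almost the same measurement. AATAAA or ATTAAA, searched on the transcript strand, was found in 4 of the 29 probes and in 13.4% of all probes.

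The brightest Pvt1 probe lay between 9.65 and 10.31 on the control arrays and between 6.39 and 7.85 on the silenced arrays, a change of -2.86 (SE 0.32, adjusted p = 0.000682, limma) that left 13.8% of the control level. Between 51.6% and 62.5% of spots on an array were positive and significant against background. Silenced 4 had the lowest share and lay 0.65 below the mean of all arrays over its median probe, and control 3 had the lowest mean correlation with its own group, 0.96. Over all tested probes with a value on every control array, 449 of 27181 had control 3 at least 2 log2 units below the next control array and far from the rest, against 0 to 3 for each other control array, and silenced 4 was the low array for 199 of 25904. The median change over all 28649 tested probes was -0.19. The changes of the markers that follow stand by their brightest tested probe. The summed intensities take the brightest probe of every gene of a list, tested or not, without masking of dim spots. Of 8 myoblast markers 7 were well above background. Myod1, the master regulator of the muscle lineage (change -1.95), Des, the intermediate filament desmin (-1.35), and Cdh15, M-cadherin (-0.86), fell. Chrna1 (-0.30), Ncam1 (-0.42), Myog (0.13) and Pax7 (0.02) were not called. The summed intensity of the list was 95653 to 106714 in control and 57242 to 79470 in silenced cells. None of 8 endothelial markers was well above background on any array. Of 9 fibroblast and tendon markers 6 were above it, Dcn (decorin, change 2.49) and Pdgfra (0.73, called in 8 of 19 alternative settings) rose, the collagen genes Col1a1 (-0.45) and Col3a1 (-0.39) were not called, and the summed intensities overlapped, at 83380 to 95996 and 90303 to 102186. Of 7 macrophage markers 4 were above it, Cd68 rose (1.84), Itgam (-1.08) and Csf1r (-1.12) fell, and the sums were 5810 to 6573 and 6728 to 9615. Of 8 epithelial markers Krt8, Krt19, Krt5 and Krt14 were above it, with overlapping sums of 7495 to 8956 and 6802 to 9687. Of 6 Schwann cell markers 3 were above it, Mbp and Erbb3 among them, and their sums did not overlap, at 637 to 988 in control and 1034 to 1222 in silenced cells. Among second probes, 1 of Col1a1 (-1.70, adjusted p = 0.00108) and 1 of the myoblast marker Ncam1 (-2.0, adjusted p = 0.00161, limma) were called lower although the brightest were not. None of the epithelial or Schwann cell markers tested was called by its brightest probe, Krt5 had no tested probe, and another Krt8 probe, well above background on 2 silenced arrays and no control array, was called higher (adjusted p = 0.00611, limma). Of 20 liver transcripts 15 were above background on at least 1 array and 6 had a tested probe. The summed intensity of all 20 was 1155 to 2038 in control and 5672 to 7444 in silenced cells. Fgg (at least 1.81-fold higher, adjusted p = 0.00264, limma) and Cyp2e1 (change 1.14, called in 9 of 18 alternative settings) rose. In bulk RNA, fewer cells of a type and less RNA per cell cannot be told apart, and the part of these shifts in the values below was not tested.

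Of the 29 probes, 19 could be tested, that is, had a value on at least 3 arrays of each group, and they covered 9 of the 10 genes. Perlecan, by the probe farther from its 3′ end, Nid2 and the beta chain Lamb2 fell, and no laminin alpha chain was called. Thus 3 of the 19 probes, or 15.8%, were called lower against 18.4% of all tested probes, and 1, or 5.26%, was called higher against 4.79% of all tested probes, so the share of called members was near the background in both directions. This balance depended on the scaling, with 3 lower and 3 higher under cyclic loess or in the authors' table, and over all tested probes 5269 lower and 1373 higher calls became 5258 and 5416 under cyclic loess. The probe called higher, for Lamc1, was not well above background on any array. Control and silenced arrays did not overlap for 5 of the 19 probes, against 28.2% of all tested probes. The median change of the 19 probes was -0.22, beside -0.19 over all tested probes, and 13 of them were below 0. When each gene was represented by its brightest tested probe, 2 of 9 members were lower, against 14% of all such genes, and none was higher, against 5.99%. The 15 probes that were not called changed by between -0.68 and 0.79, with the smallest adjusted p at 0.0737.

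**Figure D1:**
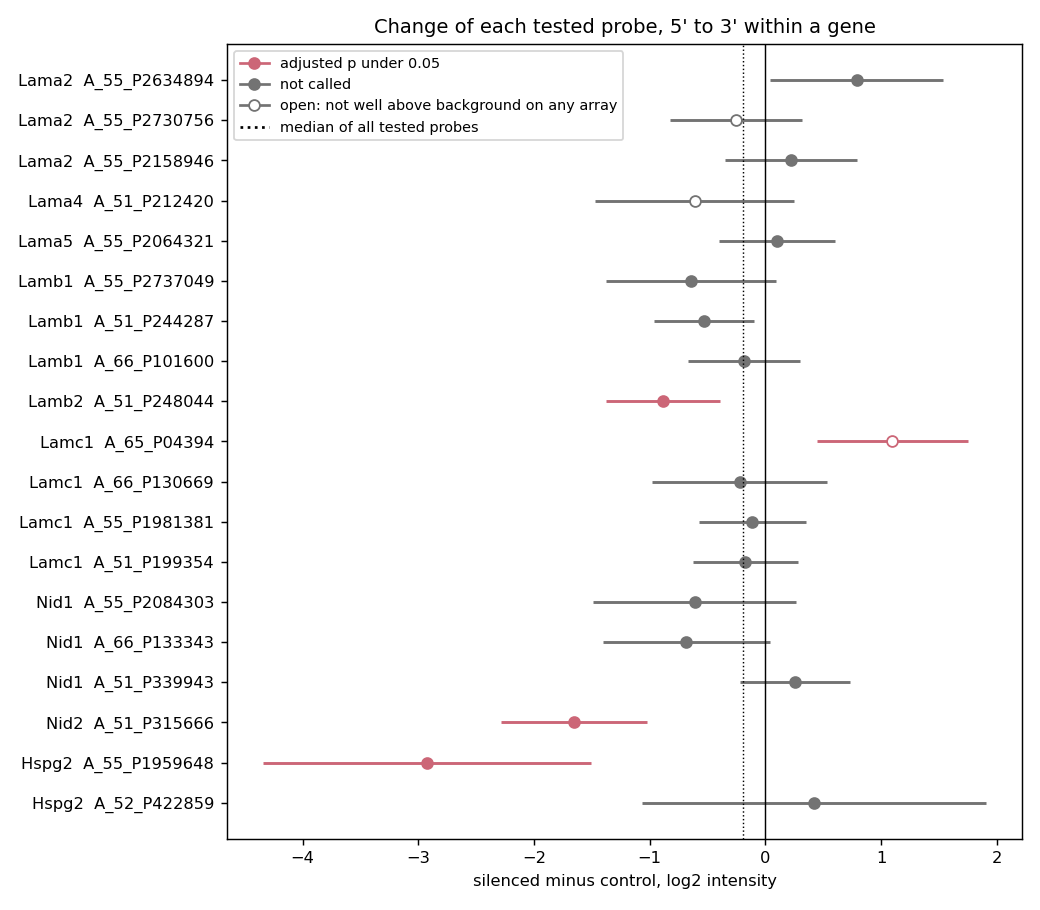
Change of each of the 19 tested probes (silenced minus control, log2 intensity, x axis) with its 95% confidence interval from limma, ordered 5′ to 3′ within each gene. Red marks an adjusted p below 0.05, open circles mark probes not well above background on any array, and the dotted line is the median change of all tested probes, -0.19. The Hspg2 probes lie on opposite sides of 0, at -2.92 and 0.42, and the second has a wide interval and is at -0.39 without control 3.

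Perlecan gave the largest change among the 19 probes, but by only 1 of its probes. The probe nearer the 5′ side, A_55_P1959648, was at 9.93, 10.35, 7.34 and 10.39 on control arrays 1 to 4 and at 6.85, 7.21, 5.95 and 6.31 on silenced arrays 1 to 4. Every control array was above every silenced array, although control 3 lay close to the silenced range. The change was -2.92 (SE 0.63, 95% interval -4.34 to -1.51, adjusted p = 0.0103, limma), which left 13.2% of the control level, and the probe was well above background on 4 control and 3 silenced arrays. The probe nearer the 3′ end, A_52_P422859, begins 947 bases further along the chromosome and was at 13.78, 13.77, 10.58 and 13.93 on the control arrays and at 13.47, 13.56, 13.65 and 13.05 on the silenced arrays. Apart from control 3, which was low by both probes, the 3 other control arrays lay above all silenced arrays by a small margin. Its change was 0.42 with an interval of -1.07 to 1.91 (adjusted p = 0.696, limma), and without control 3 it was -0.39 (adjusted p = 0.215). For the 5′ probe the change without control 3 was -3.65. With the authors' series table (-2.62, adjusted p = 0.0547) and without masking of dim spots (-2.62, adjusted p = 0.0601) the call on the 5′ probe was lost. Within slide rows its change was -2.36 in the row with 3 control arrays and silenced 1, and -3.90 in the row with control 4 and the 3 other silenced arrays.

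**Figure D2:**
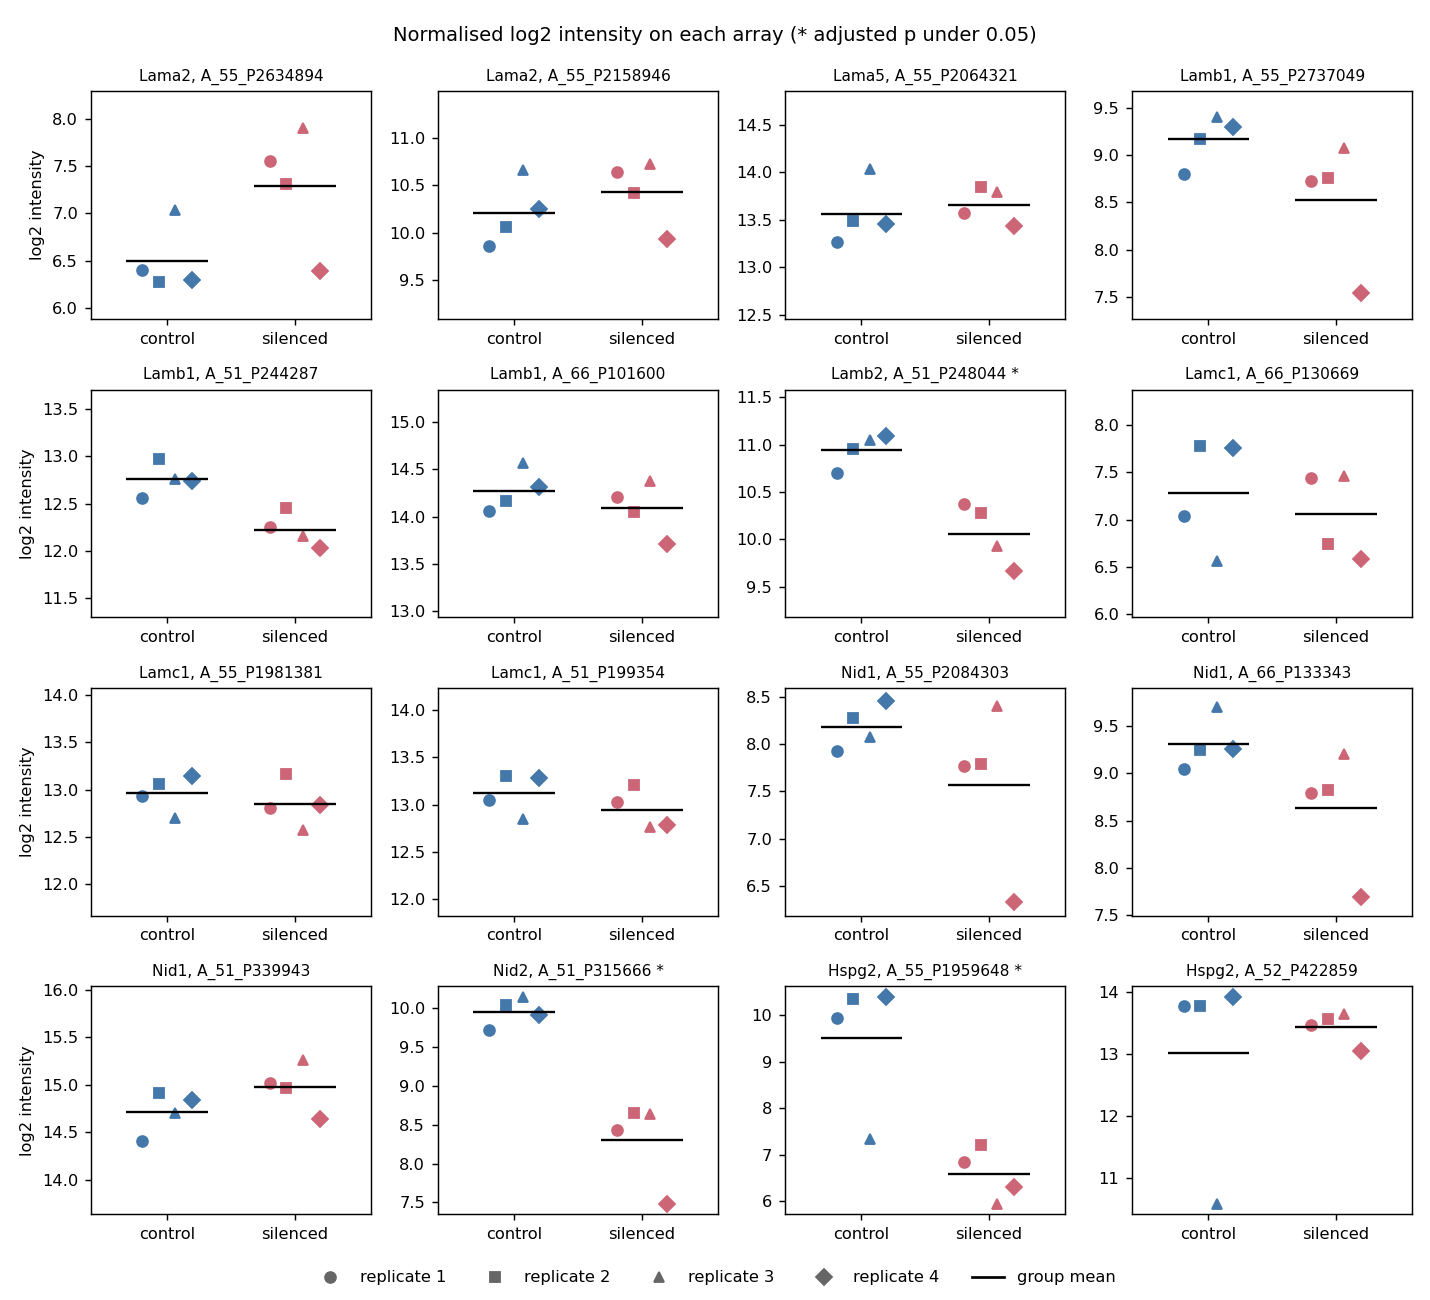
Normalised log2 intensity (y axis, each panel with its own range) on the 4 control and 4 silenced arrays for the 16 tested probes that were well above background on at least 1 array. Symbols give the replicate number, lines the group means, and asterisks the probes with an adjusted p below 0.05. Nid2 at the bottom shows separated groups, and control 3 lies far below the other control arrays for both Hspg2 probes, at 7.34 and 10.58.

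Of the nidogens, Nid2 fell, and none of the Nid1 probes was called as fitted here. Both proteins have a laminin-binding domain and can stand in for each other in most basement membranes. Nid2 A_51_P315666 was at 9.72, 10.04, 10.15 and 9.92 on the control arrays and at 8.44, 8.65, 8.63 and 7.48 on the silenced arrays. All silenced arrays were more than 1 log2 unit below all control arrays. Silenced 4 was the lowest, though without masking of dim spots it was at 8.40, among the other silenced arrays at 8.38 to 8.62. The change was -1.66 (SE 0.28, interval -2.29 to -1.03, adjusted p = 0.00367, limma), or 3.15-fold lower, and it was -1.53 and -1.66 within the slide rows. The second Nid2 probe, A_55_P2732071, had a value on 1 array and could not be tested.

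Nid1 was read by 3 probes over 74279 bases. The probe at the 3′ end, A_51_P339943, was at 14.41, 14.92, 14.70 and 14.84 on the control arrays and at 15.02, 14.97, 15.27 and 14.64 on the silenced arrays. Of the silenced arrays, 3 were above every control array and silenced 4 lay inside the control range. The change was 0.26 (interval -0.22 to 0.73, adjusted p = 0.427, limma), and it passed the threshold with cyclic loess (0.42, adjusted p = 0.0221), the authors' table (0.43, adjusted p = 0.00961) and no masking (0.45, adjusted p = 0.0156). Without masking of dim spots, silenced 4 was at 15.13. Every silenced array (14.95 to 15.21) was then above every control array (14.45 to 14.79). The other probes, A_66_P133343 and A_55_P2084303, changed by -0.68 (interval -1.40 to 0.04, adjusted p = 0.158) and -0.61 (interval -1.49 to 0.27, adjusted p = 0.296), the first of which passed with the 75th percentile shift (-0.80, adjusted p = 0.0216). Silenced 4 was the lowest array for both, at 7.70 and 6.33, while the other silenced arrays were at 8.79 to 9.21 and at 7.76 to 8.40. Without masking silenced 4 was also the lowest for both, at 8.60 and 7.30.

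The beta chains occupy the same place in the laminin trimer, Lamb1 in most tissues and Lamb2 mainly at the neuromuscular junction and in the kidney filter. Lamb2 had a single probe, at 10.70, 10.95, 11.05 and 11.09 on the control arrays and at 10.37, 10.28, 9.93 and 9.67 on the silenced arrays. All silenced arrays were below all control arrays. The change was -0.89 (SE 0.22, interval -1.38 to -0.39, adjusted p = 0.0184, limma), or 54.1% of the control level. It was -0.53 and -1.13 within the slide rows, and the call was lost with slide row as a block (-0.83, adjusted p = 0.0950), with the replicate number as a block (-0.89, adjusted p = 0.0601), without control 2 (-0.88, adjusted p = 0.0559) and without control 4 (-0.84, adjusted p = 0.0650).

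Lamb1 was tested by 3 of its 5 probes and none was called. A_51_P244287, whose sequence spans 1347 bases of the chromosome and therefore crosses a splice junction, was at 12.55, 12.97, 12.76 and 12.74 on the control arrays and at 12.25, 12.45, 12.16 and 12.03 on the silenced arrays. Here too the groups did not overlap, but the change was smaller, -0.53 (interval -0.96 to -0.10), and its adjusted p of 0.0737 (limma) was the smallest among the probes not called. It passed the threshold in 6 of 21 alternative settings, with changes between -0.53 and -0.38 in those 6. The 5′ probe A_55_P2737049 changed by -0.64 (interval -1.38 to 0.09) and passed with the 75th percentile shift (-0.75, adjusted p = 0.0325, limma), with silenced 4 at 7.54 and the other silenced arrays at 8.72 to 9.07 beside control arrays at 8.79 to 9.40. The 3′ probe A_66_P101600 changed by -0.19 (interval -0.67 to 0.30), and its sign turned under 3 other scalings or maskings.

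Lamc1 encodes the gamma chain shared by most laminins. Its overlapping 3′ probes were at 12.70 to 13.15 and 12.85 to 13.30 in control and at 12.57 to 13.17 and 12.76 to 13.21 in silenced cells. These ranges overlapped almost completely, and the changes were -0.11 (interval -0.57 to 0.35) and -0.17 (interval -0.63 to 0.28), with adjusted p-values of 0.739 and 0.588 (limma). The remaining probe, A_66_P130669, spans 927 bases and crosses a splice junction, and it changed by -0.22 (interval -0.98 to 0.53). The changes of all 3 probes were positive but uncalled with cyclic loess. The probe called higher, A_65_P04394, carries no RefSeq mRNA in its annotation and lies 29625 bases upstream of the 3′ probe. It was at 4.42, 4.33 and 4.80 on control arrays 1, 2 and 4, was masked on control 3, and was at 5.49, 5.43, 6.25 and 5.27 on the silenced arrays (adjusted p = 0.0257, limma). Because no array measured it well above background, no fold is given, and the call was lost in 6 of 16 alternative settings.

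The alpha chains carry the domains at the long arm's end that bind integrins and dystroglycan. Lama2 is the alpha chain of adult muscle, Lama4 is typical of vessels and nerve, Lama5 is widespread, and Lama1 belongs mainly to the embryo. Lama5 had 1 probe, at 13.27, 13.49, 14.04 and 13.46 on the control arrays and at 13.57, 13.84, 13.79 and 13.43 on the silenced arrays. The groups overlapped and the change was 0.10 (interval -0.40 to 0.60, adjusted p = 0.799, limma). The 3′ probe of Lama2, A_55_P2158946, was at 9.85, 10.06, 10.66 and 10.25 on the control arrays and at 10.64, 10.41, 10.73 and 9.93 on the silenced arrays, a change of 0.22 (interval -0.35 to 0.79, adjusted p = 0.581) that passed only with control 3 and silenced 4 both left out (0.54, adjusted p = 0.0360).

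Lama2 A_55_P2634894, which has no RefSeq mRNA in its annotation, showed the largest positive change among probes well above background, 0.79 (interval 0.04 to 1.54, adjusted p = 0.120, limma). It was at 6.41, 6.27, 7.04 and 6.30 on the control arrays and at 7.56, 7.31, 7.90 and 6.39 on the silenced arrays. Of the silenced arrays, 3 were above all control arrays and silenced 4 was among them. Without masking silenced 4 was at 7.36, above the control arrays at 5.98 to 6.85. The probe passed the threshold in 6 of 21 alternative settings. Among them were cyclic loess (1.13, adjusted p = 0.00419), the authors' table (1.15, adjusted p = 0.0131), no masking (1.14, adjusted p = 0.0134), the 75th percentile shift (0.73, adjusted p = 0.0299) and the fit without silenced 4 (1.09, adjusted p = 0.0131). Lama2 A_55_P2730756 and Lama4 A_51_P212420 were tested but not well above background on any array, and neither was called (adjusted p = 0.511 and 0.280).

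Of the 10 probes that could not be tested, 2 were for Lama1, 2 for Lama2, 3 for Lama4, 2 for Lamb1 and 1 for Nid2, and none was well above background on any array. Neither Lama1 probe was positive and significant on any array, nor were Lama2 A_52_P459341 and Lama4 A_55_P2733262. Both Lama1 and Lama4 therefore had no probe well above background on any of the 8 arrays, whereas Lama2, Lama5, Lamb1, Lamb2, Lamc1, Nid1, Nid2 and Hspg2 each had at least 1.

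Probes of a single gene did not always move alike, so the value of the most 3′ tested probe was subtracted from that of the most 5′ tested probe within each array, for the 5 genes with several tested probes. The level of this difference has no meaning of its own, because probes differ in brightness, and only its shift between groups was tested, by exact permutation of the arrays (two-sided), adjusted over the 5 genes. For Hspg2 the difference was -3.85, -3.42, -3.24 and -3.53 on the control arrays and -6.63, -6.36, -7.70 and -6.74 on the silenced arrays. Control 3, which stood apart for each probe, was close to the other control arrays for their difference. The shift was -3.34, from -3.51 ± 0.25 to -6.85 ± 0.58 (SD, n = 4 each, exact permutation p = 0.0286, adjusted p = 0.0476).

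For Nid1 the difference went from -6.54 ± 0.12 to -7.40 ± 0.63 (SD, n = 4 each), a shift of -0.87, and for Lamb1 from -5.11 ± 0.13 to -5.56 ± 0.42, a shift of -0.45, each with an exact permutation p of 0.0286 and an adjusted p of 0.0476. In all 3 genes every silenced array was below every control array. Silenced 4 was the lowest for Nid1 and Lamb1, at -8.31 and -6.18, and without it the shifts were -0.56 and -0.25. An exact p of 0.0286 is the smallest that 4 against 4 arrays allow. In these 3 genes the 5′ probe was the dimmer member, and over all tested probes the median change was -0.17, -0.34, -0.22 and -0.09 from the dimmest to the brightest of 4 equal sets of probes. The part of brightness and of RNA quality along the transcript in these shifts was not tested.

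For Lama2 the shift was 0.57 (exact permutation p = 0.0571), with a 5′ probe that has no RefSeq mRNA in its annotation. The most 5′ tested probe of Lamc1 was A_65_P04394, which no array measured well above background. Its shift is therefore not read as a measured size, and with a value on only 3 control arrays its smallest possible exact p was 0.0571. With the RefSeq mRNA probes of Lamc1 that were well above background, the shift was -0.11 (exact permutation p = 0.743), and Lama2 had only 1 such probe.

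**Figure D3:**
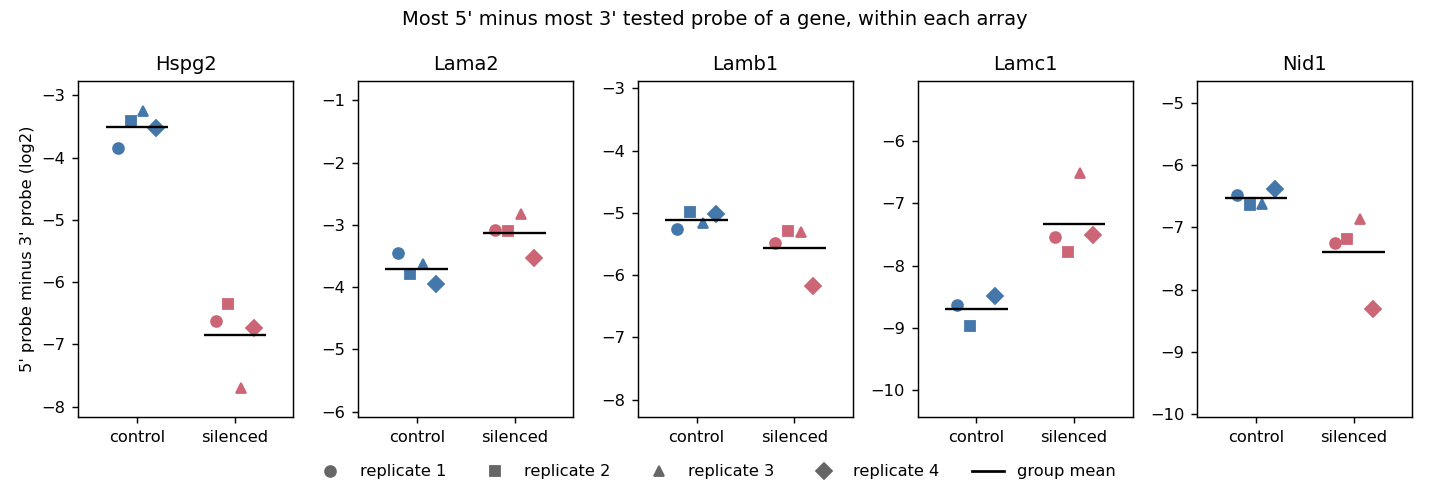
Log2 value of the most 5′ minus that of the most 3′ tested probe of a gene (y axis, the same span in every panel) on each array, with symbols for the replicate number and lines for group means. The Hspg2 difference moved from between -3.85 and -3.24 in control to between -7.70 and -6.36 in silenced arrays, while the Lamb1 groups lie close together. The 5′ probe of Lamc1 was not well above background on any array.

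Other genes of the basement membrane and its receptors were taken as a fixed list of 83, each by its brightest tested probe. Of the 70 that could be tested 12 fell and 8 rose, beside 14% and 5.99% of all genes, and their median change was -0.16, beside -0.09 over all genes. The balance turned with the scaling, to 13 lower and 21 higher with cyclic loess, 11 and 20 with the authors' table or without masking, and 12 and 18 without silenced 4. The choice of probe mattered, since 30 of the 70 had several tested probes, and of the 50 genes not called by the brightest, 8 had another probe called lower and 1 of these also a probe called higher. None of the 3 tested laminin chains outside the set was called, and the Lamb3 probes, for a beta chain of epithelial laminin, changed by 0.88 (adjusted p = 0.147) and -0.72 (adjusted p = 0.0564, limma).

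Of 15 other basement membrane proteins 6 fell and 3 rose. Those that fell most were Npnt, nephronectin, a ligand of integrin alpha 8 (change -2.22, SE 0.33, adjusted p = 0.00197), and Col4a2, a chain of the type IV collagen to which nidogens bind (-2.20, SE 0.28, adjusted p = 0.00108, limma). The partner chain Col4a1 (-1.71), Fbln2 (-1.28), Tinagl1 (-1.27) and Frem1 (at least 1.09-fold lower) were the others. Col18a1, the source of endostatin, rose most (1.29, SE 0.19, adjusted p = 0.00192), followed by Agrn, agrin, a laminin-binding proteoglycan that clusters acetylcholine receptors (0.99), and Sparc, a collagen-binding matrix protein (0.55).

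Of 21 receptors and dystrophin complex members 4 fell and 1 rose. Bcam, an immunoglobulin receptor for the laminin alpha 5 chain, was well above background on all control arrays and on no silenced array, and was at least 2.31-fold lower (adjusted p = 0.00500, limma). Itga3, an integrin chain that binds laminins containing alpha 3 or alpha 5, fell by 1.87 (SE 0.20, adjusted p = 0.000623), and Sdc3, a syndecan (-1.31), fell as well. Itgb4, which pairs with integrin alpha 6, rose by 1.22 (SE 0.25, adjusted p = 0.00825). The muscle laminin receptor chains Itga7 (-0.18, adjusted p = 0.548) and Itgb1 (-0.31, adjusted p = 0.444) were not called by their brightest probe, but the other tested probe of each was lower, by -2.20 (adjusted p = 0.000553) and -1.63 (adjusted p = 0.00170, limma). Utrn, of the dystrophin complex, was not called by its brightest probe (-0.15, adjusted p = 0.727) but was lower by 2 of its 6 tested probes. These were A_52_P257071 (-1.52, adjusted p = 0.00842) and A_52_P294955 (adjusted p = 0.000871, limma), the latter well above background on no silenced array. Dag1, dystroglycan, had a single tested probe, which was not called (-0.20, adjusted p = 0.578).

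Dystroglycan binds laminin alpha 2 through a sugar chain. Among 15 enzymes that build it, none fell by its brightest probe, though another probe of Pomgnt1 (-1.16) did, and Pomgnt2 (1.39, SE 0.38, adjusted p = 0.0272) and B4gat1 (0.89, SE 0.23, adjusted p = 0.0209, limma) rose. Among 16 genes of heparan sulfate synthesis and turnover, which include those that make the side chains of perlecan, Ndst2, a sulfotransferase (-0.85, adjusted p = 0.0247), and Ext1, a polymerase (-0.70, adjusted p = 0.0430), fell, and Hpse, heparanase (1.19, adjusted p = 0.0379), and Xylt2, which starts the chain (0.92, adjusted p = 0.0146), rose. A second Xylt2 probe was called in the other direction (-1.03, adjusted p = 0.0264), and Ndst1, another sulfotransferase, was not called by its brightest probe (-0.57, adjusted p = 0.587) but was lower by its 3 other probes, those well above background at -1.18 and -0.67. Col4a1, Fbln2, Tinagl1, Frem1, Agrn, Sparc, Sdc3, Itga7, Itgb1, Utrn, Dag1, B4gat1, Pomgnt1, Xylt2, Ndst1 and Lamb3 were named after their values were seen. The calls on Sparc, Ext1, Hpse, Pomgnt2 and B4gat1 held in 10, 9, 12, 12 and 14 of 19 alternative settings, those on Ndst2, Cdh15, Csf1r, Bcam and Xylt2 in 15, 16, 16, 17 and 18 of 19, and that on Frem1 in 17 of 18. Calls on second probes were not examined in alternative settings.

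**Figure D4:**
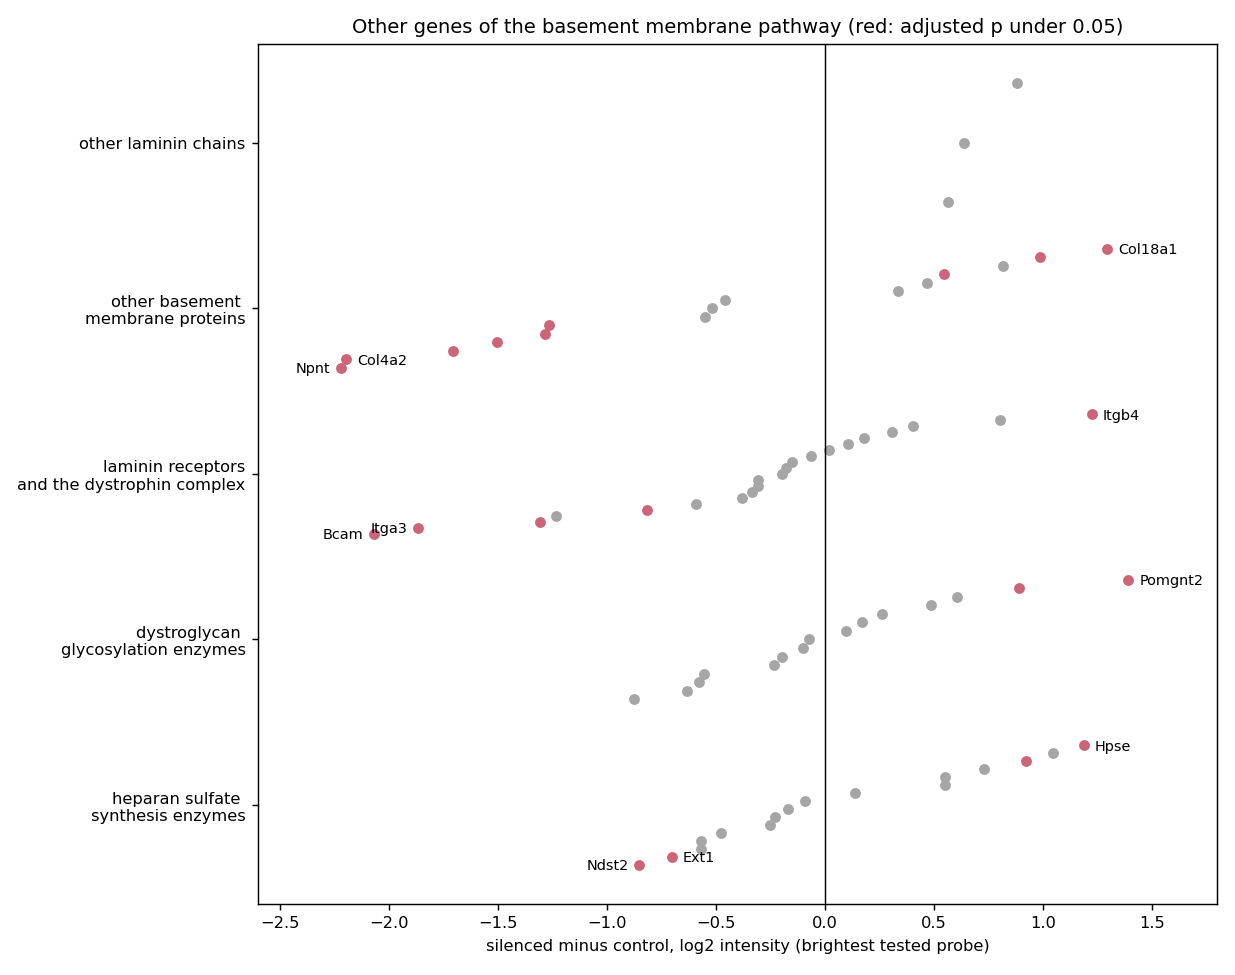
Change (silenced minus control, log2 intensity, x axis) of the 70 tested genes of 5 lists, each gene by its brightest tested probe, spread vertically by rank within its list. Red points have an adjusted p below 0.05, 12 below 0 and 8 above it, and in each list the called genes with the largest rise and the 2 largest falls are named, with Npnt lowest at -2.22 and Pomgnt2 highest at 1.39.

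**Figure D5:**
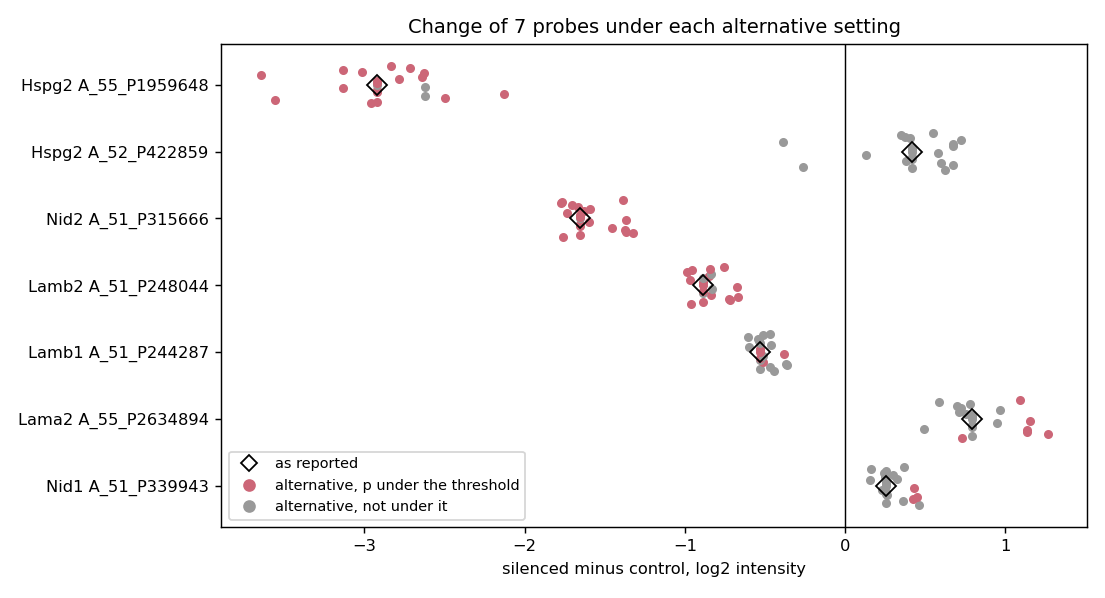
Change of 7 probes (silenced minus control, log2 intensity, x axis) as reported (diamonds) and in each alternative setting (circles, red where the p used by that setting was below 0.05). Nid2 stays between -1.77 and -1.32, the Hspg2 5′ probe between -3.65 and -2.13, and the Hspg2 3′ probe crosses 0.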

How the data were processed

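Gene expression was measured on 8 single-colour Agilent arrays, 4 per group. The authors deposited 1 scanner file per array, whose processed signal intensity is background-subtracted by Agilent Feature Extraction (12.0.0.7 per the file headers, 10.7.3.1 in the submitters' processing notes), and a series table, also an intensity, used as an alternative. The array design is annotated on mm9. No intensity was read as a count, and the number of arrays limits the precision.

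Following the methods of the study, spots not positive and significant were set to missing, and log2 intensities were quantile normalized and averaged per probe, with control spots and outlier spots left out in addition (59305 spots, 56605 probes). The 28649 probes with values on at least 3 arrays of each group were fitted with limma 3.58.1 in R 4.3.3 (lmFit and eBayes), with Benjamini-Hochberg adjustment over all of them and a threshold of 0.05. All 17 member probes with a RefSeq mRNA matched the same symbol in the RefSeq gene table of GRCm38.p6, of which no coordinates were used. Whether a probe lies in an untranslated region was not analysed here. Shifts between probes of a gene were tested with exact permutations of the arrays. Same-numbered arrays of the groups deviated together with correlations of -0.02, 0.15, 0.20 and 0.06, so replicate numbers were not taken as pairs. All arrays lay on 1 slide in 2 rows.

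Every member probe is described, and some genes of the other lists are not reported here. For the other pathway lists the called gene with the largest rise and those with the 2 largest falls were named by rule, and of the marker lists the genes well above background. For a probe well above background in 1 group only, a fold is a lower bound, with the dim group at the higher of its own value and the lowest value well above background on each array. Members and lists were chosen with earlier results of these data known. The scripts were tested on simulated data. Alternatives were another scaling (75th percentile, cyclic loess, normexp with offset 50, the authors' table), masking, filters, blocks, a robust prior, an unequal-variance t-test, and leaving out arrays. Figures were drawn with matplotlib 3.10.9.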

Additional observations from a re-analysis of the deposited data

Results flagged for a closer look

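For both perlecan probes 1 control array stood apart from the other control arrays, as it did for 449 of the 27181 probes examined over the whole array. Control 3 was at 7.34 for Hspg2 A_55_P1959648, where the others were at 9.93 to 10.39, and at 10.58 for Hspg2 A_52_P422859, where the others were at 13.77 to 13.93. These were 2 of 44 groups of 4 values examined, and chance alone marks about 5% of such groups. Without control 3 the changes of both probes were -3.65 and -0.39.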

How the results depend on the processing

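Across 384 changes of single probes in alternative settings, 334 kept their direction and side of the threshold, 14 lost a call, 18 gained one and 18 turned sign, none of them called. The number of members called lower was 2 to 5 in every setting, 5 with the 75th percentile shift. The study's legend on these arrays gives an unequal-variance t-test and names no correction. With that t-test, unadjusted, the number called lower was 4. After Benjamini-Hochberg, Nid2 (adjusted p = 0.0511) and Hspg2 A_55_P1959648 (adjusted p = 0.0967) were no longer called.

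The number called higher was 2 with that shift, 3 with cyclic loess, the authors' series table, no masking, or control 3 and silenced 4 both left out, and 0 with normexp, with only probes bright on every array of a group, with only probes on all 8 arrays, with slide row as a block, with the robust prior and with the methods' t-test after Benjamini-Hochberg. With the replicate block it was also 0, with 2 members called lower, and over all probes the block lowered calls from 5269 to 3994 (lower) and from 1373 to 1023 (higher), while slide row as a block, with 3 arrays of one group and 1 of the other in each row, lowered them to 2573 and 534. Leaving out each array in turn gave 2 to 3 members lower and 0 to 2 higher.

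Pathway genes called higher, 8 as reported, were 21 with cyclic loess, 20 with the authors' table and without masking, 3 with slide row as a block, 14 with the robust prior, 4 with the mean of all tested probes and 24 with both arrays left out. Leaving out each array gave 9 to 13 lower and 4 to 18 higher, the 18 without silenced 4. Over all probes the higher calls went from 1373 to 5416 with cyclic loess, 4509 with the authors' table, 4990 without masking and 3653 without silenced 4, as the median change went from -0.19 to 0.02, 0.01, 0.01 and -0.02, while lower calls were 5258, 4461, 4787 and 5099.

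The shift between probes along Lama2, 0.57 as reported, passed the threshold with the 75th percentile shift (0.59), cyclic loess (0.74), normexp (0.30), the authors' table (0.71) and no masking (0.68). With RefSeq mRNA probes it was -0.48, fitted on a 5′ probe that no array measured well above background. The Lamc1 pair also has such a 5′ probe, so its fitted values, 1.54 with the authors' table, 1.50 with no masking and 1.08 to 1.51 with 1 array left out, are no measured sizes and nothing is read from their p-values. With RefSeq mRNA probes, all of them well above background, Lamc1 shifted by -0.11. With 1 array left out, 4 against 3 arrays cannot pass after adjustment, and the shifts were -3.51 to -3.06 (Hspg2), 0.46 to 0.70 (Lama2), -0.55 to -0.25 (Lamb1) and -1.05 to -0.56 (Nid1). With both arrays left out, which was chosen after seeing the data, Hspg2, Lamb1 and Nid1 shifted by -3.29, -0.26 and -0.60.

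The uncalled changes that turned sign were Lamb1 A_66_P101600 with the 75th percentile shift (0.0218), cyclic loess (0.0213), no masking (0.00075) and both arrays left out (0.0298), Lamc1 A_55_P1981381 with the 75th percentile shift (0.0048), cyclic loess (0.0687), the authors' table (0.0334) and no masking (0.0514), Lamc1 A_66_P130669 with cyclic loess (0.13), the authors' table (0.13) and no masking (0.11), Lamc1 A_51_P199354 with cyclic loess (0.0213), Lama2 A_55_P2730756 with cyclic loess (0.00995), the authors' table (0.10) and no masking (0.0910), Lama5 A_55_P2064321 without control 1 (-0.0018; -0.0018 to 0.26 over the arrays left out in turn), and Hspg2 A_52_P422859 without control 3 (-0.39; -0.39 to 0.72 over the arrays) and with both arrays left out (-0.26). The cause of these differences was not tested. Dim probes and 4 arrays a group limit what could be called.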
